A study of Mus musculus with 6 samples.

Results

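The transcripts described here encode serine proteases that are anchored in the cell membrane, together with the Kunitz-type inhibitors that restrain them. The 7 genes were taken by name from the 23284 gene symbols in the count files. They were chosen by family, with their levels in each library and their shCrebbp against control differences known. The set holds the protease genes St14, Tmprss4, Prss8, Tmprss2 and Hpn and the inhibitor genes Spint1 and Spint2, and all 7 are listed in each file. They were measured in preSC cells, a mouse line that the labels describe as a precursor of small cell lung cancer (SCLC). The label gives no further genotype for the line, and its libraries all come from 1 line. Each library was made from poly(A)-selected RNA of cells carrying a lentiviral pLKO.1-TRC vector. Among the 3 controls, replicates 1 and 2 carried an empty vector (shEmpty) and replicate 3 a hairpin that silences nothing (shNS). The 3 knockdown libraries carried Crebbp hairpin 1, 2 or 5, with 1 library for each hairpin, so the spread within that group includes differences between hairpins. Crebbp encodes the histone acetyltransferase CREB-binding protein, and the study set out to find genes that it regulates. Nothing in the labels ties a library to a culture of its own, so every test measures the spread between these libraries only, which may be technical.

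Membrane-anchored serine proteases act at the cell surface of epithelia, where they cut receptors, growth factor precursors and channel subunits. Matriptase, encoded by St14, is made as an inactive precursor and can activate other proteases. Prostasin, encoded by Prss8, is tethered by a lipid anchor and works with matriptase in a shared cascade that is best known from skin and other barrier epithelia. The products of Spint1 and Spint2, the hepatocyte growth factor activator inhibitors, span the membrane and block these enzymes through Kunitz domains. Matriptase and its inhibitors are usually made in the same epithelial cells. Subunits of the epithelial sodium channel, the precursor of hepatocyte growth factor and the adhesion protein EpCAM are among the proteins these enzymes can cut.

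Between 13622020 and 19804949 reads per library were counted in genes, and levels are given as TMM-normalized CPM (counts scaled to a common library size). The targeted gene, Crebbp, measured 66.2, 69.6 and 69.4 CPM in controls 1, 2 and 3, against 46.2, 58.3 and 48.9 CPM under hairpins 1, 2 and 5. The groups did not overlap, but the difference was small (log2 fold change -0.42 ± 0.10, SE) and missed the threshold over all genes in edgeR (adjusted p = 0.0999). DESeq2 called it (adjusted p = 0.0149), as did edgeR without hairpin 2 (adjusted p = 0.0478), the hairpin with the highest Crebbp level. Limma-voom did not call it (adjusted p = 0.0967). Nor did edgeR with any other library left out, with another normalization or filter, or with non-robust estimation. Epithelial and neuroendocrine markers, the latter typical of SCLC, were present in every library. The 5 epithelial markers summed to between 2360 and 2940 CPM in the controls and between 1100 and 1570 CPM with hairpins, and the 9 neuroendocrine markers to between 7030 and 8150 CPM and between 5710 and 7630 CPM. The epithelial sum thus moved with the protease and inhibitor genes below, and its part in their change was not tested. Of its markers, Epcam and Cldn7 are also counted among the substrates and partners of the proteases below. In bulk RNA, fewer cells that make a transcript and less of it per cell cannot be told apart. Markers of other cell types were low: 6 endothelial markers summed to at most 1.64 CPM and 7 immune markers to at most 5.91 CPM in any library, with Cldn5, Emcn and Emr1 at 0 reads. The 8 fibroblast markers summed to between 38.0 and 45.8 CPM in controls and between 14.8 and 64.2 CPM with hairpins, most of it Dcn, with Col3a1 at 0 reads. The 7 alveolar and airway markers summed to between 8.9 and 9.75 CPM in controls and between 4.56 and 9.12 CPM with hairpins.

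The promoters of 4 of the 7 genes (Spint1, Spint2, Tmprss2 and Hpn) are in the RefSeq promoter table of build GRCm38.p6. The windows of the 3 that had enough reads to be tested are shown because their transcripts were lower together in the hairpin libraries. Each is the 250 bases before the annotated start, written 5′ to 3′ on the gene's own strand. They lie at chr2:119237110-119237359 (plus strand) for Spint1, chr7:29281978-29282227 (minus strand) for Spint2 and chr16:97611196-97611445 (minus strand) for Tmprss2. The authors' counts were made on mm9, so these positions do not apply to the count files. Capitals mark matches, on either strand, to any of 6 motifs that were searched: CAGGTG (an E-box), AACCGG (part of the grainyhead motif), TGACG (the cAMP response element half-site), GGGCGG (the GC box), CGGAAG (the ETS core) and TATAAA (the TATA box). No marked matches overlap one another.
Spint1: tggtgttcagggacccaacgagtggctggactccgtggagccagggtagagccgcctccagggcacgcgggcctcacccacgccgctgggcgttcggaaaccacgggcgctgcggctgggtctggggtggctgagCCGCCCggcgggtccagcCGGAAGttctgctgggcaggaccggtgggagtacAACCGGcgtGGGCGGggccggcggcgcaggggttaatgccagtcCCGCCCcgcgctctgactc
Spint2: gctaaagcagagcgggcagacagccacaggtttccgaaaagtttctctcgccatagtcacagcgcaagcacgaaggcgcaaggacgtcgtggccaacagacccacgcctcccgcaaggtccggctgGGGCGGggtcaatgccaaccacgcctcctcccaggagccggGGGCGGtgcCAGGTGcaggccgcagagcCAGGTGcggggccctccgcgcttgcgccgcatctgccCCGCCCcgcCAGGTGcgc
Tmprss2: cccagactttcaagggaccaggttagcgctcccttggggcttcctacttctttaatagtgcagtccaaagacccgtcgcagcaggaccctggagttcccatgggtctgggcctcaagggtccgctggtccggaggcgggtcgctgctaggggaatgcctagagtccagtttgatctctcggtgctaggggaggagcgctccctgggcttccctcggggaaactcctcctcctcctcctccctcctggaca
The Spint2 window holds CAGGTG 3 times, at 74, 55 and 9 bases before the start. Of all 32851 promoter windows of this length, 17.2% hold CAGGTG at least once and 0.247% hold it 3 times or more. The Spint1 window lacks CAGGTG and holds AACCGG once, 63 bases before the start, a motif found in 5.62% of windows. It also holds CGGAAG once, 97 bases before the start, against 13.6% of windows. Both inhibitor windows hold GGGCGG 3 times, a motif that 32.7% of windows hold at least once and 8.47% hold 3 times or more. Their GC content was 72.8% for Spint1 and 69.6% for Spint2, against a median of 52.4% over all windows. The Tmprss2 window, at 61.6% GC, holds none of the 6 motifs, and no member window holds TGACG (17.8% of all windows) or TATAAA (12.4%). The first of the 2 Hpn windows, not shown, holds CAGGTG at 126 and 43 bases before the start and GGGCGG at 56 and 11 bases. The second holds none of the 6 motifs. A match is a description of these letters and not of binding.

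In the control libraries the inhibitor transcripts outnumbered those of the proteases. Levels of different genes were compared per kb of annotated transcript, as TMM-normalized CPM divided by the median length of the gene's protein-coding transcripts. On that scale Spint2 stood highest in controls at 267 ± 6.78 CPM per kb (SD, n = 3), followed by Spint1 at 49.0 ± 2.18 and St14 at 36.4 ± 1.77 CPM per kb. Tmprss4 stood at 12.5 ± 1.04, Prss8 at 4.39 ± 0.831 and Tmprss2 at 1.89 ± 0.302 CPM per kb. No neighbours in this order overlapped between the control libraries. With hairpins the order was the same by mean, but Tmprss4 (2.48, 3.65 and 2.80 CPM per kb) and Prss8 (2.39, 2.68 and 2.64 CPM per kb) did then overlap, with hairpins 1, 2 and 5 in that order.

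**Figure D1:**
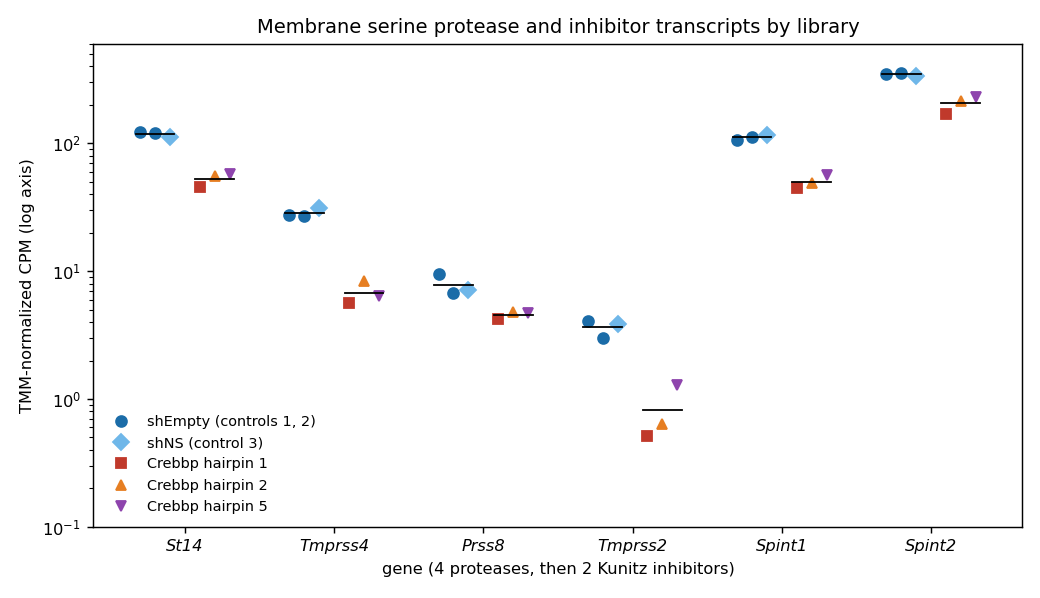
TMM-normalized CPM (log axis) of 6 member genes in each of the 6 libraries, with 1 point per library and a black line at each group mean. In each gene the 3 Crebbp hairpin libraries lie below the 3 controls, and hairpin 1 is the lowest. Hpn is left out because it had 0 or 1 read per library.

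The members were listed with their shCrebbp values already known. Their differences between the groups are therefore given as a description with no p-value, and the counts below support nothing. Of the 6 members with enough reads to be tested, edgeR called 5 lower at an adjusted p of 0.05, all but Prss8, and DESeq2 called all 6. Over all 13390 tested genes edgeR called 1.25%, 0.978% lower and 0.276% higher. DESeq2, run on all genes, called 733 of the 18097 with any read, in either direction. How many of these had an adjusted p in DESeq2 was not counted. The 3 hairpin libraries lay below the 3 controls in all 6 tested members, against 11% of tested genes. The median log2 fold change of the 6 was -1.16, beside 0.01 over all tested genes. Without control replicate 1 or without control replicate 2 edgeR called no gene at all, although 1332 and 1238 genes had an unadjusted p under 0.05, and so called no member. Without control replicate 3 it called 3 members and 48 of 13544 genes in all. Without hairpin 2 it called 3 members and 101 of 13487 genes in all.

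St14, the matriptase gene, was the most abundant of the proteases. Its level was 123, 120 and 112 CPM in controls 1, 2 and 3, against 45.6, 55.6 and 58.0 CPM under hairpins 1, 2 and 5. The lowest control was well above the highest hairpin library. The group means were 119 ± 5.77 and 53.1 ± 6.56 CPM (SD, n = 3 each), a 2.23-fold difference (log2 fold change -1.16 ± 0.11, SE).

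Tmprss4, a transmembrane protease gene, showed a larger fold difference. Its level was 27.4, 27.0 and 31.3 CPM in the controls, against 5.66, 8.34 and 6.40 CPM under hairpins 1, 2 and 5. The counts behind the hairpin values were 77, 117 and 94 reads. The groups were far apart, with a log2 fold change of -2.07 ± 0.17.

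Prss8, the prostasin gene, was scarce in these cells and its groups lay closer together. The controls had 9.50, 6.77 and 7.15 CPM of it, the hairpin libraries 4.26, 4.77 and 4.70 CPM. Control replicate 1 was above the other two controls, and the hairpin libraries were nearly alike. The log2 fold change was -0.77 ± 0.20. In the RefSeq annotation of GRCm38 the gene overlaps the acetyltransferase gene Kat8, which the files list as Myst1. Reads from the shared stretch cannot be apportioned, since neither the strand setting nor the handling of overlaps is stated in the sources used here. Myst1 averaged 35.1 CPM in controls, against 34.0 CPM under the hairpins (log2 fold change -0.04 ± 0.11, edgeR adjusted p = 0.894).

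Tmprss2, a transmembrane protease gene known from airway and prostate epithelium, was near the detection limit with hairpins. It had 80, 49 and 53 reads in the controls, or 4.09, 2.99 and 3.87 CPM. With hairpins 1, 2 and 5 it had 7, 9 and 19 reads, or 0.514, 0.641 and 1.29 CPM. The exact 95% Poisson limits of these 3 counts were 2.81 to 14.4, 4.12 to 17.1 and 11.4 to 29.7 reads, which cover counting error only. The log2 fold change was -2.14 ± 0.37, and -2.65 without hairpin 5, whose library was the highest of the 3. Only 4 libraries held 10 reads or more, the 3 controls and hairpin 5, so the gene passed the filter on low counts through the group in which it was high.

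Hpn, which encodes the protease hepsin, was not detectable above single reads at this depth. It had 1 read in control replicate 1, 1 in control replicate 3 and 1 with hairpin 2, and none in the other libraries. The exact 95% Poisson upper limit of a count of 0 is 3.69 reads. For scale, 3 reads amount to between 0.183 and 0.22 CPM in those 3 libraries. No comparison of the groups was made for it.

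Both inhibitor genes were lower with the hairpins. Spint1 measured 106, 113 and 116 CPM in controls 1, 2 and 3, against 44.8, 48.7 and 56.7 CPM under hairpins 1, 2 and 5. Its log2 fold change, -1.15 ± 0.10, was close to that of St14. Spint2, the most abundant member, measured 347, 355 and 337 CPM in the controls, against 170, 216 and 232 CPM under the hairpins. The controls differed little, with a coefficient of variation of 2.54%, while the hairpin libraries varied by 15.6%. The Spint2 log2 fold change was -0.75 ± 0.12, or 1.68-fold lower.

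Hairpin 1 gave the lowest level in each of the 6 detected members. Its library also had the lowest Crebbp level. The log2 difference from the control mean with hairpins 1, 2 and 5 was -1.37, -1.09 and -1.03 for St14 and -1.31, -1.19 and -0.97 for Spint1. In Spint2 it was -1.03, -0.68 and -0.58. Hairpins 2 and 5 changed places between genes, since Tmprss4 was lower with hairpin 5 (-2.13 against -1.76) and Tmprss2 was lower with hairpin 2 (-2.28 against -1.40). Crebbp itself stood at -0.57, -0.23 and -0.48. With 1 library per hairpin these differences have no test.

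**Figure D2:**
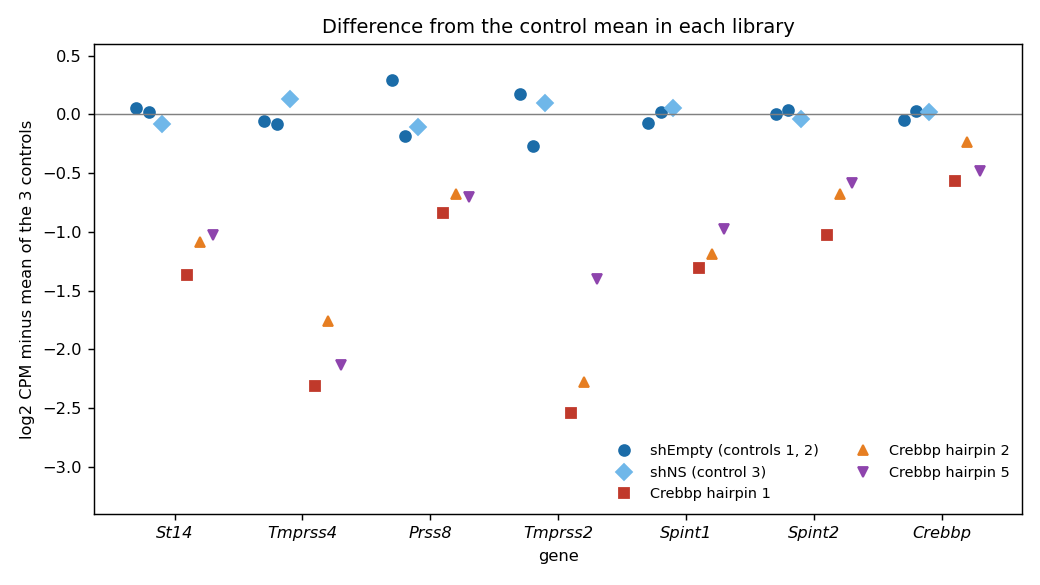
Log2 CPM (prior count 2) minus the mean of the 3 controls, for 6 members and Crebbp, with 1 point per library. The 3 controls scatter around 0, and the hairpin libraries lie between -0.58 and -2.54 for the members, with hairpin 1 the lowest in each.

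The control vectors were compared with each other. The list of members was not drawn from this contrast, but their levels in each library were known when it was drawn up. In a fit with 3 groups that assumes the single shNS library to vary like the others, edgeR called 0 of 13390 genes between shNS and shEmpty (0%), with 100 (0.747%) at an unadjusted p under 0.05. Limma-voom also called 0, with 121 at an unadjusted p under 0.05. The shNS minus shEmpty difference was -0.12 ± 0.17 for St14, 0.20 ± 0.24 for Tmprss4 and -0.19 ± 0.33 for Prss8 on the log2 scale (SE). It was 0.13 ± 0.54 for Tmprss2, 0.08 ± 0.17 for Spint1 and -0.06 ± 0.19 for Spint2, and the edgeR adjusted p was 1 for each of the 6. Hence 3 members were higher and 3 lower with shNS. With 1 shNS library, differences of this size could not be resolved. The spread used in this fit also includes the differences between the 3 hairpins. Far fewer genes had an unadjusted p under 0.05 than the share of 0.05 given when nothing differs, so the fit was conservative. The lack of calls therefore does not show that the control vectors act alike.

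The balance between proteases and inhibitors was examined as ratios of their levels per kb, which are free of library size. St14 and Spint1 kept a similar ratio, at 0.812, 0.744 and 0.676 in control replicates 1, 2 and 3 and 0.710, 0.796 and 0.713 with hairpins 1, 2 and 5. The groups overlapped, with means of 0.744 ± 0.068 and 0.740 ± 0.049 (SD, n = 3 each). St14 against Spint2 did not keep its ratio, which stood at 0.142, 0.135 and 0.132 in the controls and at 0.107, 0.103 and 0.0997 with hairpins. The 2 groups lay apart, and the mean with hairpins was 0.756 of the control mean. The Spint2 to Spint1 ratio was correspondingly higher with hairpins, at 6.64, 7.76 and 7.16 against 5.73, 5.52 and 5.11. Because these ratios use the members' own group differences, they carry no test.

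Summed over St14, Tmprss4, Prss8 and Tmprss2, protease transcripts stood at 57.3, 54.1 and 54.2 CPM per kb in the controls and at 19.1, 23.7 and 23.9 CPM per kb with hairpins. The 2 inhibitors together stood at 314, 323 and 311 CPM per kb in the controls and at 151, 188 and 203 CPM per kb with hairpins. The ratio of the 4 proteases to the 2 inhibitors was 0.183, 0.167 and 0.174 in controls and 0.127, 0.126 and 0.117 with hairpins, with no overlap. St14 made up 63.6% to 68.2% of the protease sum in controls and 71.9% to 74.4% with hairpins. The Tmprss4 share was 21.0% to 25.3% in controls and 11.7% to 15.4% with hairpins. Transcript levels do not give the amount or the activity of the proteins.

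**Figure D3:**
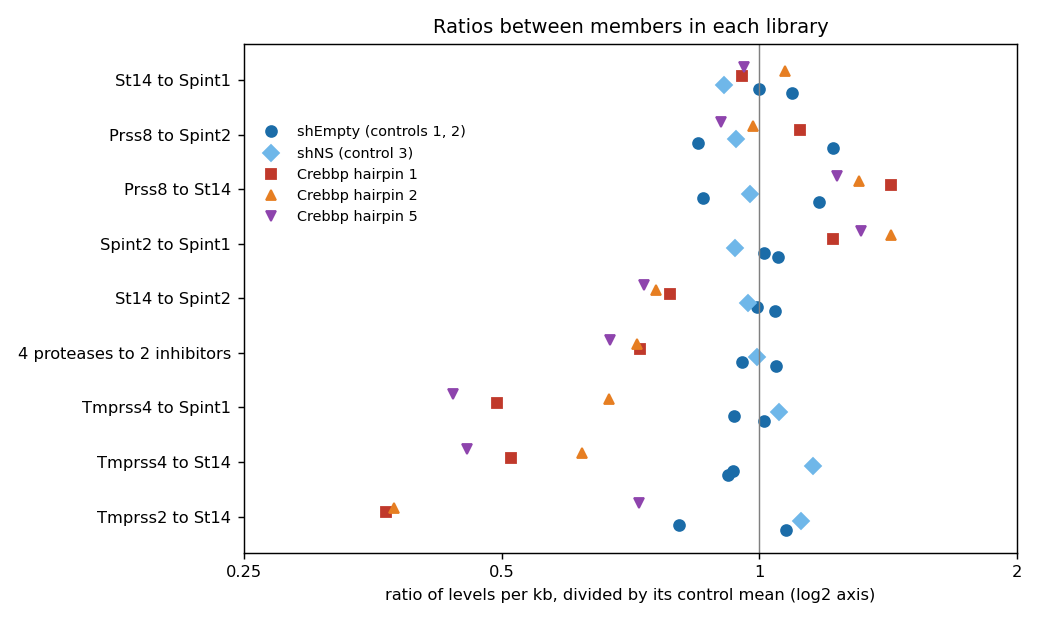
Ratios between members, from levels per kb, divided by the control mean of that ratio (log2 axis), with 1 point per library. The St14 to Spint1 and Prss8 to Spint2 ratios of the 2 groups overlap, while St14 to Spint2, the 4 proteases to the 2 inhibitors and the ratios with Tmprss4 or Tmprss2 on top are lower in the hairpin libraries.

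For each member with an average log2 CPM of 2 or more, the genes whose levels ran closest over the 6 libraries were found. The measure was the root mean square (RMS) difference of mean-centred log2 CPM, among 11523 genes whose average met the same limit. Tmprss2 (average log2 CPM 1.28) and Hpn were not searched. The 3 closest to St14 were Scnn1a, which encodes the alpha subunit of the epithelial sodium channel (RMS difference 0.061), the keratin gene Krt18 (0.072) and the zinc finger gene Zbtb42 (0.088). Spint1 came next at 0.093, and the median gene lay at 0.613. The 3 closest to Spint1 were the polarity gene Crb3 (0.068), Krt18 (0.070) and St14 (0.093). For Tmprss4 they were Ccdc64b (0.192), Tgif1 (0.223) and the mucin gene Muc1 (0.266). For Spint2 they were Acnat1 (0.055), the aspartyl protease gene Bace2 (0.062) and the nuclear receptor gene Nr1d1 (0.073), and for Prss8 Fam160a1 (0.089), Tgfbr2 (0.101) and Dnahc8 (0.102). Spint2 ranked as the 58th closest gene to St14 and the 48th closest to Spint1. The likeness is dominated by the group difference and is a description of these 6 libraries.

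Substrates and partners of these proteases were mostly lower by sign. Of 22 listed genes present in the files 15 were tested, of which 2 passed over all genes as lower (13.3%, against 0.978% of all tested genes) and 0 as higher. The log2 fold change was negative in 13 of the 15, against 46.8% of all tested genes, with a median of -0.58 beside 0.01. The hairpin libraries lay wholly below the controls in 7 of the 15 and wholly above in 1, against 11% and 11.4% of all tested genes. Earlier results for Epcam and Cldn7 were known when the list was drawn up. Cldn7 is 1 of the 2 calls, and both genes are among the 7 and among the 13. These counts are therefore a description and support nothing.

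Scnn1a fell 2.07-fold with the hairpins. Its level was 84.8, 86.9 and 77.4 CPM in the controls, against 34.5, 42.7 and 42.9 CPM under hairpins 1, 2 and 5 (log2 fold change -1.05 ± 0.11, edgeR adjusted p = 0.00799). The other channel subunit genes were scarce. Scnn1b averaged 4.40 ± 2.16 CPM in controls, against 2.92 ± 3.15 CPM (edgeR adjusted p = 0.756; SD, n = 3 each). Scnn1g averaged 1.56 ± 0.442 CPM, against 0.852 ± 0.198 CPM (edgeR adjusted p = 0.277). Cldn7, a claudin that binds EpCAM, fell 2.50-fold from 138, 133 and 122 CPM to 66.9, 43.0 and 47.6 CPM (edgeR adjusted p = 0.0131). Neither gene passed without control replicate 1 (adjusted p = 0.0691 for Scnn1a and 0.0871 for Cldn7) or without control replicate 2 (0.0812 and 0.0959).

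Genes of this list that did not pass were chosen for mention after their values were seen. Epcam averaged 637 ± 125 CPM in controls, against 349 ± 94.1 CPM under the hairpins (edgeR adjusted p = 0.0971). Egfr, the epidermal growth factor receptor gene, measured 99.5, 84.4 and 77.0 CPM, against 31.7, 33.1 and 56.0 CPM (adjusted p = 0.0559). Hgf, the hepatocyte growth factor gene, measured 59.2, 49.6 and 37.8 CPM in the controls, against 32.6, 18.2 and 23.4 CPM (adjusted p = 0.0858). Its receptor gene Met averaged 22.1 ± 3.34 CPM, against 19.9 ± 11.1 CPM, with hairpin 1 lowest at 8.60 CPM and hairpin 2 highest at 30.7 CPM (adjusted p = 0.901). Epcam was called lower by DESeq2 and by edgeR without hairpin 5, Hgf by DESeq2 and by edgeR without hairpin 1, and Egfr by DESeq2, by limma-voom and by edgeR without hairpin 5. F2rl1, the gene of a receptor that matriptase can activate, had 5 reads over all 6 libraries.

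**Figure D4:**
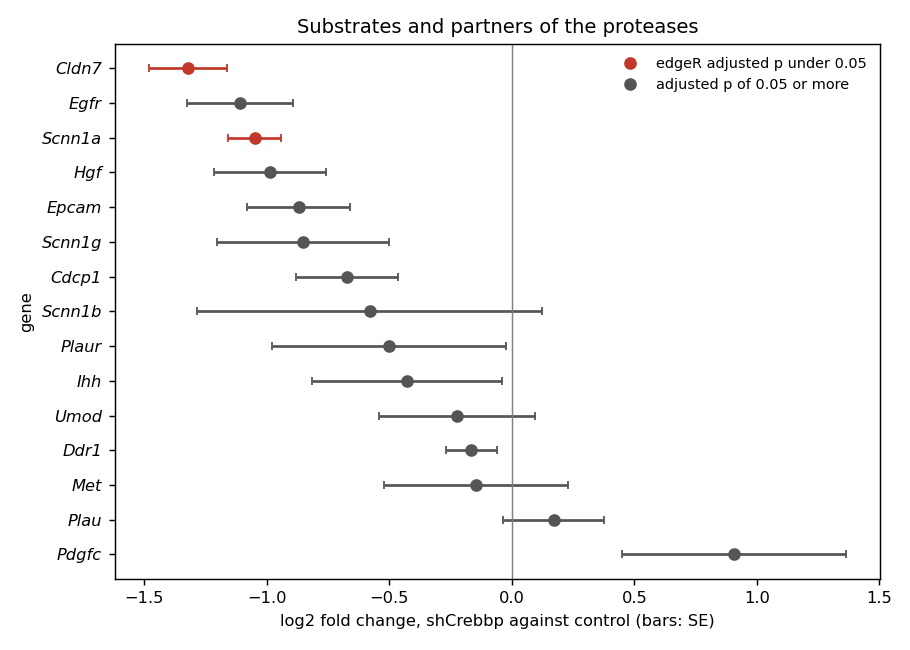
Log2 fold change (shCrebbp against control) with SE bars for the 15 tested genes listed as substrates or partners of the proteases, with 3 libraries in each group. Scnn1a and Cldn7, in red, passed the adjusted p of 0.05, and 13 of the 15 lie below 0.

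Other membrane-anchored serine proteases were nearly absent. Of 20 listed genes in the files only Tmprss7 and Corin had enough reads to be tested. Tmprss7 averaged 4.18 ± 0.342 CPM in controls, against 3.92 ± 0.823 CPM under the hairpins (edgeR adjusted p = 0.901), and Corin, the atrial natriuretic peptide convertase gene, averaged 0.562 ± 0.161 CPM, against 1.17 ± 0.756 CPM (adjusted p = 0.418). Neither passed in edgeR, DESeq2 or limma-voom, and neither had an unadjusted p under 0.05. Among the untested ones Tmprss9 had the most reads, 47 over the 6 libraries, and Tmprss13, which lies near Tmprss4, had 12.

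No other listed inhibitor of serine proteases passed the test. Of 11 tested Kunitz-type and serpin genes none was called by edgeR, against 1.25% of all tested genes. Of the 11, 1 had an unadjusted p under 0.05, as did 2203 of all 13390. The log2 fold change was negative in 7, against 46.8% of all tested genes (median -0.08, beside 0.01). DESeq2 and limma-voom also called none. The abundant Kunitz-domain genes App and Aplp2 averaged 753 ± 46.3 and 767 ± 55.2 CPM in controls, against 743 ± 75.4 and 723 ± 100 CPM (edgeR adjusted p = 0.955 and 0.780, both named after their values were seen). Aplp2 is the next gene to St14 on the chromosome. Serpinb8, an intracellular serpin gene, measured 40.7, 34.2 and 25.4 CPM in controls, against 3.82, 14.5 and 19.6 CPM under hairpins 1, 2 and 5 (adjusted p = 0.186), and Col7a1, a collagen gene with a Kunitz domain, averaged 3.41 ± 0.082 CPM, against 2.46 ± 0.349 CPM (adjusted p = 0.364).

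Other pericellular and proprotein-processing proteases and their inhibitors made up 28 tested genes. Of these 1 passed as lower (3.57%, against 0.978% of all tested genes) and 0 as higher (against 0.276%). The median log2 fold change was 0.08, beside 0.01 over all tested genes. The hairpin libraries lay wholly below the controls in 3 of the 28 and wholly above in 3, against 11% and 11.4% of all tested genes. The called gene was Bace2, at 22.8, 22.5 and 22.2 CPM in controls against 10.6, 12.5 and 14.8 CPM under the hairpins (1.78-fold lower, edgeR adjusted p = 0.0356). It lost the call without control replicate 1, 2 or 3 or without hairpin 2 (adjusted p = 0.204, 0.218, 0.125 and 0.0723). The sheddase genes Adam10 and Adam17 and the convertase gene Furin, named after their values were seen, had log2 fold changes of 0.10, 0.01 and -0.01 (edgeR adjusted p = 0.824, 0.977 and 0.970). Timp3, also named after its values were seen, averaged 2.85 CPM in controls, against 6.52 CPM under the hairpins (edgeR adjusted p = 0.108). DESeq2 called it higher.

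Genes beside the members on the chromosome were examined next, using the RefSeq order of GRCm38. For the 6 detected members the 2 closest protein-coding genes on each side gave 24 neighbours, of which 16 were tested. In edgeR 1 passed as lower and 0 as higher, against 0.978% and 0.276% of all tested genes. The log2 fold change was negative in 9 of the 16, against 46.8% of all tested genes. Its median was -0.04, beside 0.01 over all tested genes. The called neighbour was Bace2, the next gene but one to Tmprss2. Ripk4, directly beside Tmprss2 on the other side and named after its value was seen, averaged 21.0 CPM in controls, against 11.9 CPM under the hairpins (log2 fold change -0.82 ± 0.17, adjusted p = 0.0640). The largest difference among the 16 was upward, in Dpf1 near Spint2, which averaged 6.83 CPM in controls and 13.5 CPM under the hairpins (log2 fold change 0.99 ± 0.30, adjusted p = 0.150). Neighbours of St14, such as Zbtb44 (-0.15 ± 0.13, adjusted p = 0.644), and of Spint1, such as Zfyve19 (-0.12 ± 0.10, adjusted p = 0.604), did not pass. The genes directly beside Tmprss4, Scn4b and Il10ra, had 2 and 11 reads in all.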

How the data were processed

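Poly(A)-selected RNA from 6 libraries was sequenced. The submitters' processing notes list the build mm9, TopHat2 2.0.12, HTSeq 0.6.1 and bcl2fastq 1.8.2. Which annotation was used is not given in the sources used here. Each deposited file gives 1 library's reads per gene symbol as raw counts, with no scaling or pooling by the authors. The 5 HTSeq summary rows (24.8% to 28.9% of counts) were left out.

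Counts were tested in edgeR 4.0.16 (R 4.3.3) with TMM normalization, filterByExpr and the robust quasi-likelihood test, with group as the only term, over 13390 genes, with Benjamini-Hochberg adjustment at 0.05. The script was tested on simulated data. Members, gene lists and naming rule were chosen with earlier results of these data known. From each list the called genes with the smallest p were named (at most 4), or the first 2 by p in a list without calls. No test was run on a list as a whole. Transcript lengths came from GENCODE M21 (GRCm38). Alternatives were DESeq2 1.42.0, limma-voom (limma 3.58.1), other normalizations and filters, non-robust estimation and leaving out each library. Protein sequences were not used here.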

Additional observations from a re-analysis of the deposited data

How the results depend on the processing

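The log2 fold changes of the 6 tested members were recomputed under 13 alternatives each. All 78 values were negative, which the lack of overlap between the groups all but fixes, and 77 moved by less than the spread between replicates. The exception was Tmprss2 without hairpin 5 (-2.65). Leaving out each library gave ranges of -1.24 to -1.06 for St14, -2.24 to -1.96 for Tmprss4, -0.875 to -0.605 for Prss8, -2.65 to -1.90 for Tmprss2, -1.26 to -1.08 for Spint1 and -0.854 to -0.631 for Spint2. The number of genes called over all genes was 168 in edgeR and 733 with DESeq2, and ranged from 0 (without control replicate 1 or 2) to 389 when 1 library was left out. In the 4 gene lists together edgeR called 3 genes lower (5.36%, against 0.978% of all tested genes) and 0 higher (against 0.276%). At an unadjusted p under 0.05 there were 15 of the 56 tested, against 2203 of all 13390 tested genes. DESeq2 called 6 lower and 1 higher, against 733 in either direction of all 18097 genes with any read. Leaving out 1 library gave 0 to 5 lower and 0 to 2 higher. The cause of these changes in the number of calls was not tested. With counts in place of levels per kb, the ratio of St14 to Spint1 was 1.07 in controls and 1.06 with hairpins, St14 to Spint2 was 0.342 and 0.259, and the 4 proteases to the 2 inhibitors 0.347 and 0.256. With the longest transcript as length, St14 to Spint2 was 0.145 and 0.110, and the 4 proteases to the 2 inhibitors 0.130 with hairpins. These changes follow from the lengths used. No paired analysis was possible because the hairpin numbers name vectors, and control replicates 1 and 3 have no number in the labels and were numbered in accession order. Depth limits Tmprss2 (7 to 19 reads with hairpins) and Hpn.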
